A study of Homo sapiens with 6 samples.

Results

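The genes of major histocompatibility complex (MHC) class I and of peptide loading were followed in DU145, an established human prostate cancer cell line. They were the rows of the deposited expression table named HLA-B, HLA-C, HLA-E, HLA-F, B2M, TAP1, TAP2, TAPBP and NLRC5, 9 of the 19727 genes listed. Cells transfected with lentivirus-circCSPP1, which overexpresses a circular RNA of the CSPP1 gene, were compared with cells transfected with lentivirus-NC, the control vector. Each group held 3 libraries of polyadenylated RNA, and both groups were stable lines selected with puromycin after transduction. Since each line carries a different vector, effects of the circular RNA, of the vector and of the history of the line cannot be told apart. The labels do not say whether the 3 libraries of a group came from separate cultures, so p-values measure only the spread between these libraries. All 9 passed the filter on low values, a mean over the libraries of 1 FPKM or more (fragments per kilobase, scaled to 1000000 fragments in the library), which left 12322 genes for testing.

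MHC class I molecules carry short peptides from inside the cell to its surface, where CD8+ T cells read them. A polymorphic heavy chain pairs with the light chain β2-microglobulin in the endoplasmic reticulum, and the TAP transporter brings in peptides that the proteasome has cut. Tapasin holds the empty molecule at the transporter until a peptide fits. The promoters of these genes share elements that answer to interferons, NF-kB and the activator NLRC5, and many tumours express the genes at low levels.

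No gene of the group differed between lentivirus-circCSPP1 and lentivirus-NC at an adjusted p under 0.05 when all 6 libraries were used (limma on log2(FPKM + 1), Benjamini-Hochberg adjustment over all genes tested), against 11.4% of all tested genes, 6.66% lower and 4.69% higher. At an unadjusted p under 0.05 there were 2, TAPBP and HLA-F, against 28.2% of all tested genes. The log2 difference was below 0 in 8 of the 9 genes, and in 54% of all tested genes, with HLA-B at 0.0042 under median-ratio scaling. Its median was -0.14 over the 9 genes and -0.03 over all tested genes. Without lentivirus-circCSPP1 replicate 1, 4 of the 9 genes were lower at an adjusted p under 0.05, namely HLA-F, TAPBP, NLRC5 and TAP1, against 15.4% of all tested genes lower. In the same fit 5 of the 9, the same genes and HLA-C, had no overlap between the groups and were lower, against 29.3% of all tested genes. In 7 of the 9 genes this replicate was the highest lentivirus-circCSPP1 library, so leaving it out lowers the mean of that group. Standard errors changed too, from 0.18 to 0.083 for HLA-F, 0.13 to 0.070 for TAP1 and 0.44 to 0.53 for B2M. Of all tested genes 28.5% passed in either direction in this fit, against 11.4% with all 6 libraries. How much each change moved the calls was not tested. Leaving out any other single library gave 0 of the 9 at an adjusted p under 0.05, against 293 of 12288 to 1164 of 12339 tested genes.

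The sequences that these genes share before their start sites are shown first, because most of the members have them. RefSeq promoters (GRCh38.p14, from 250 bases before to 50 bases after the start) were found for 7 of the 9 genes, in 8 entries, since TAP1 has 2; HLA-E and NLRC5 had none in the table used. The motifs were chosen with the promoter sequences in view, and both strands were searched. An interferon-stimulated response element (ISRE)-like motif, either GAANNGAAA or a pair of GAAA runs with 2 bases between them, was found in all 7 genes, and 10.6% of the 35116 human promoter entries hold at least 1 of these forms. The forms can overlap each other. In each line below the window is 30 bases long, reads 5′ to 3′ on the strand of the gene, and has the matched letters in capitals, which read TTTC where the match is on the other strand.
HLA-B: ctcccctgagTTTCACTTCttctcccaact
HLA-C: ctcccctgagTTTCACTTCtcccaacctgc
HLA-F: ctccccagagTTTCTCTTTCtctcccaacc
B2M: actctaaGAAAAGGAAACTGAAAacgggaa
TAP1: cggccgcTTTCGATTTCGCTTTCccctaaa
TAP2: ggctgggGAAGCGAAAGCGAAAgctgcccg
TAPBP: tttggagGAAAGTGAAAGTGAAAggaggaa

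The heavy chain windows lie at chr6:31357315-31357344 (HLA-B, minus strand), chr6:31272224-31272253 (HLA-C, minus strand) and chr6:29723268-29723297 (HLA-F, plus strand). That of B2M lies at chr15:44711366-44711395 on the plus strand. Those of the loading genes lie at chr6:32853816-32853845 (TAP1), chr6:32838780-32838809 (TAP2) and chr6:33314076-33314105 (TAPBP), all on the minus strand. Counted from the start site, the matches of the heavy chains fall between positions -156 and -143, close together in all 3, and that of TAPBP lies nearest to the start, from -20 to -5. The TAP1 match is in 1 of its 2 entries.

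A cyclic AMP response element (CRE)-like site, TGACG, which belongs to the module bound by NLRC5 and its partners in class I promoters, was found in 4 of the 7 genes and in 24.6% of all entries. It is shown for the pair of classical heavy chains and the light chain, with the same use of capitals.
HLA-B: ccaggatactcgTGACGcgtccccacttcc
HLA-C: cctgaatactcaTGACGcgtccccaattcc
B2M: cttggagacaggTGACGgtccctgcgggcc

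These windows lie at chr6:31357268-31357297, chr6:31272180-31272209 and chr15:44711430-44711459. The inverted CCAAT motif ATTGG, the recognition letters of NF-Y, was found in 5 of the 7 genes and in 34.6% of all entries. An NF-kB-like motif, GGATTCNCC, was found in HLA-B and HLA-C among the 7 and in 0.834% of all entries. A match of letters is a description of the window and shows no binding.

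The libraries held an estimated 28600000 to 36400000 fragments, with overlapping ranges in the groups, as read from the step between the low values of short genes. CSPP1 was higher in lentivirus-circCSPP1 by 0.94 on the log2 scale (adjusted p = 0.016, limma), a value that does not separate the linear from the circular RNA. For its stable lines the paper reports by qRT-PCR that circCSPP1 changed and linear CSPP1 mRNA did not, with CSPP1 protein barely affected. Epithelial markers were present in all libraries, and KRT8 fell from 1112 ± 26.4 to 416 ± 38.3 FPKM (mean ± SD, n = 3), while KLK2 and KLK3 were listed at 0 in every library. All 5 epithelial markers fell, and their summed level was 2271 to 2361 FPKM with lentivirus-NC and 1046 to 1278 FPKM with lentivirus-circCSPP1. Of 7 stromal and endothelial markers, 6 were under 1 FPKM in every library, and the summed level was 3.13 to 4.96 FPKM and 1.46 to 2.53 FPKM. The part of these marker differences in the results below was not tested, and in bulk RNA fewer cells of a type and less RNA per cell cannot be told apart. Of 8 immune cell markers, 6 stayed under 1 FPKM in every library. Of these, 3 (CD3D, CD3E and MS4A1) were listed at 0 throughout and PTPRC did not exceed 0.08 FPKM. The monocyte marker CD14 was detected in all libraries and its groups did not overlap. It measured 2.34, 2.42 and 2.36 FPKM with the control vector, against 1.35, 2.13 and 0.80 with lentivirus-circCSPP1. Its log2 difference was -0.51 (adjusted p = 0.13, limma). CD68, which is not restricted to immune cells, made up most of the summed immune marker level of 46.5 to 52.1 FPKM in lentivirus-NC and 36.7 to 51.8 FPKM in lentivirus-circCSPP1. Lentivirus-circCSPP1 replicate 1 stood apart from replicates 2 and 3 in relation to the GC content of transcripts, and results are given with and without it.

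**Figure D1:**
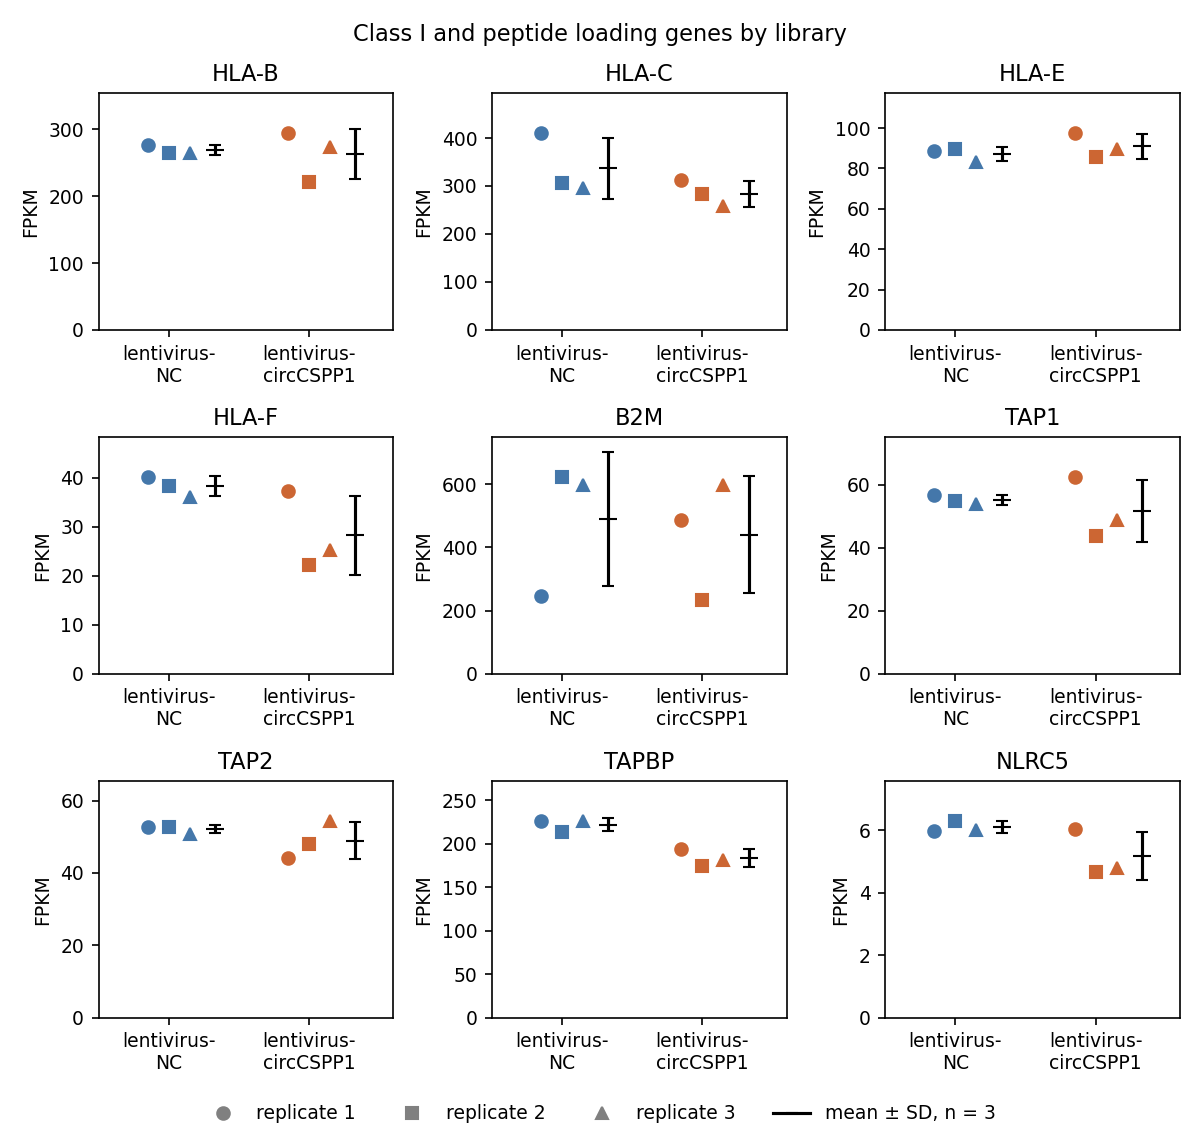
FPKM of each of the 9 genes in the 3 lentivirus-NC libraries (blue) and the 3 lentivirus-circCSPP1 libraries (orange), with the replicate number as the shape of the point and the mean ± SD (n = 3) in black; each vertical axis starts at 0. TAPBP has no overlap between the groups, HLA-F and NLRC5 are low in lentivirus-circCSPP1 replicates 2 and 3, and B2M is low in lentivirus-NC replicate 1 and lentivirus-circCSPP1 replicate 2.

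HLA-B and HLA-C are classical heavy chains, which present peptides to T cells and are among the most polymorphic human genes. HLA-B is annotated in GENCODE release 29 (GRCh38) at chromosome 6, 31269491 to 31357188, minus strand. Its level was 277, 265 and 264 FPKM with lentivirus-NC and 294, 221 and 274 FPKM with lentivirus-circCSPP1, here and for the next genes in the order of replicates 1 to 3. The lentivirus-circCSPP1 libraries lay on both sides of the narrow lentivirus-NC range. The log2 difference was -0.04, with a 95% interval of -0.30 to 0.22 (adjusted p = 0.86, limma), and it was 0.08 without lentivirus-circCSPP1 replicate 2.

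HLA-C lies from 31268749 to 31272130 on the same strand and overlaps the annotated span of HLA-B. Its level was 411, 305 and 296 FPKM with lentivirus-NC and 312, 284 and 257 FPKM with lentivirus-circCSPP1. The groups overlapped, and lentivirus-NC replicate 1 was the highest of the 6 libraries. HLA-C had a log2 difference of -0.23 (95% interval -0.56 to 0.09, adjusted p = 0.31, limma), and without lentivirus-NC replicate 1 it was -0.08, while it ranged from -0.32 to -0.08 over the 17 alternatives run.

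HLA-E and HLA-F are nonclassical heavy chains of low polymorphism; HLA-E presents leader peptides of other class I chains to the NKG2 receptors of natural killer cells. HLA-E lies on chromosome 6 from 30489467 to 30494205 on the plus strand. Its level was 88.8, 89.8 and 83.4 FPKM with lentivirus-NC and 97.6, 85.4 and 89.6 FPKM with lentivirus-circCSPP1. With all 6 libraries it was the only gene of the 9 with a log2 difference above 0, at 0.06 (95% interval -0.14 to 0.25, adjusted p = 0.71, limma), and the groups overlapped. The difference of HLA-E ran from 0.0036, without lentivirus-circCSPP1 replicate 1, to 0.099, without replicate 2, and without replicate 2 HLA-B, B2M and TAP1 were above 0 too.

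HLA-F lies from 29722775 to 29738528 on the plus strand. Its level was 40.2, 38.3 and 36.1 FPKM with lentivirus-NC and 37.3, 22.1 and 25.3 FPKM with lentivirus-circCSPP1. Replicates 2 and 3 of lentivirus-circCSPP1 were below every lentivirus-NC library, and replicate 1 was within their range. The log2 difference of -0.46 was the furthest from 0 among the 9 genes (standard error 0.18, 95% interval -0.88 to -0.03, unadjusted p = 0.038, adjusted p = 0.15, limma). With replicate 1 of lentivirus-circCSPP1 left out it was -0.67 (adjusted p = 0.0042; over the 17 alternatives the adjusted p ran from 0.0042 to 0.34).

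Fragments can be shared between heavy chain genes. Of the windows of 50 bases in the longest coding transcript in GENCODE release 29, 2.54% for HLA-B, 6.71% for HLA-C, 5.13% for HLA-E and 1.70% for HLA-F also occur in a transcript of another gene. These shares are of the reference alleles, and the alleles of the cell line can differ from them. How the authors' counting treated such fragments is not given in the sources used here, so the values of the 4 heavy chains carry this uncertainty. For B2M and NLRC5 the share was 0, and for TAP1 it was 1.07%.

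B2M encodes β2-microglobulin, the light chain that all class I molecules share, and lies on chromosome 15 from 44711487 to 44718877 on the plus strand. Its level was 245, 624 and 599 FPKM with lentivirus-NC and 488, 235 and 597 FPKM with lentivirus-circCSPP1. Lentivirus-NC replicate 1 and lentivirus-circCSPP1 replicate 2 were low, and the lowest of the other 4 libraries was 1.99-fold above the higher of this pair. Values spread widely within each group, and the log2 difference was -0.14 with a wide 95% interval of -1.17 to 0.89 (adjusted p = 0.87, limma). It was -0.58 without lentivirus-NC replicate 1 and 0.26 without lentivirus-circCSPP1 replicate 2, so its direction rested on single libraries.

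Among 1046 genes whose mean reached 100 FPKM, 3 had a larger within-group SD than the 0.73 (log2) of B2M, and the median SD of these genes was 0.13. A level at least 1.4-fold lower in the same pair of libraries than in the lowest of the other 4 was seen in 8 of the tested genes. PSME3, the subunit of the nuclear proteasome activator, was among the 8 with B2M, with 35.2 and 28.5 FPKM in these libraries and 49.98 to 75.4 FPKM in the others. This comparison was made after the values of B2M had been seen; for the other 14 pairs of libraries the number of such genes ran from 6 to 151. The heavy chains were not low in the same pair of libraries as a set, and HLA-C had its highest value in lentivirus-NC replicate 1.

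TAP1 and TAP2 encode the subunits of the heterodimeric peptide transporter. TAP1 lies on chromosome 6 from 32845209 to 32853978 on the minus strand. Its level was 56.9, 54.8 and 53.7 FPKM with lentivirus-NC and 62.6, 43.6 and 48.9 FPKM with lentivirus-circCSPP1. Replicate 1 of lentivirus-circCSPP1 was the highest of the 6 libraries and replicate 2 the lowest. TAP1 had a log2 difference of -0.11 (95% interval -0.42 to 0.21, adjusted p = 0.66, limma). With lentivirus-circCSPP1 replicate 1 left out it was -0.25 (adjusted p = 0.042; range over the 17 alternatives 0.042 to 0.98).

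TAP2 lies from 32821833 to 32838780 on the minus strand. Its level was 52.8, 52.7 and 50.9 FPKM with lentivirus-NC and 44.2, 48.1 and 54.5 FPKM with lentivirus-circCSPP1. Its order across the lentivirus-circCSPP1 libraries was the reverse of that of HLA-C, with replicate 1 the lowest and replicate 3 the highest. TAP2 had a log2 difference of -0.09 (95% interval -0.32 to 0.14, adjusted p = 0.58, limma), which was -0.02 without lentivirus-circCSPP1 replicate 1 and -0.17 without replicate 3. For TAP2, 35.8% of the windows of 50 bases also occur in another annotated gene, mostly AL669918.1, so its value is uncertain.

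TAPBP encodes tapasin, which bridges the heavy chain and the transporter and favours peptides that bind tightly. It lies on chromosome 6 from 33299694 to 33314387 on the minus strand. Its level was 227, 213 and 226 FPKM with lentivirus-NC and 194, 174 and 181 FPKM with lentivirus-circCSPP1. All 3 lentivirus-circCSPP1 libraries were below all 3 lentivirus-NC libraries, the only gene of the 9 without overlap, against 36.4% of all tested genes, and 20.5% in this direction. The log2 difference was -0.27 (standard error 0.075, 95% interval -0.45 to -0.10, unadjusted p = 0.0071), a level of 0.827 of that in lentivirus-NC. The adjusted p of 0.056 (limma) did not pass 0.05. Without lentivirus-circCSPP1 replicate 1 it was 0.0084, and over the 17 alternatives it ran from 0.0061 to 0.21. After quantile normalization TAPBP passed alone among the 9 (adjusted p = 0.023, limma), against 11.2% of all tested genes. By exact permutation of the libraries the two-sided p was 0.10, below which a design of 3 against 3 cannot go. Of the windows of 50 bases in TAPBP, 6.09% also occur in other genes.

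NLRC5 encodes the transactivator of class I genes, which acts at their promoters through the module to which the CRE-like site belongs. Only that site was searched for here, not the whole module, and it was matched in 4 of the 7 genes. It lies on chromosome 16 from 56989485 to 57083531 on the plus strand. Its level was 5.97, 6.32 and 6.03 FPKM with lentivirus-NC and 6.06, 4.66 and 4.81 FPKM with lentivirus-circCSPP1. As for HLA-F, replicates 2 and 3 were below every lentivirus-NC library and replicate 1 was not. The log2 difference was -0.21 (95% interval -0.49 to 0.08, adjusted p = 0.31, limma), and with lentivirus-circCSPP1 replicate 1 left out it was -0.31 (adjusted p = 0.034; range over the 17 alternatives 0.034 to 0.66).

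On the FPKM scale, which is per length of transcript, the mean level in lentivirus-NC ran from high to low in the order B2M, HLA-C, HLA-B, TAPBP, HLA-E, TAP1, TAP2, HLA-F and NLRC5. The ranges of B2M and HLA-C overlapped, and no other neighbours in this order did. The order of the means was the same in lentivirus-circCSPP1, where HLA-C and HLA-B overlapped too, as did TAP1 and TAP2. NLRC5, at 6.11 ± 0.187 and 5.18 ± 0.769 FPKM (SD, n = 3), was by far the lowest.

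The spread between the lentivirus-circCSPP1 libraries followed the GC content of the transcripts. Over 7663 genes whose mean reached 10 FPKM, the departure of lentivirus-circCSPP1 replicate 1 from the mean of replicates 2 and 3 had a Spearman correlation of 0.807 with GC content across genes, which are not independent replicates. In the lentivirus-NC libraries this correlation was between -0.08 and 0.114. The 7 members with a GC content above 54% all had their highest lentivirus-circCSPP1 value in replicate 1. The other two, TAP2 with 49.1% and B2M with 39.4%, did not.

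Some members departed further than their GC content would place them. HLA-F was higher in replicate 1 than in replicates 2 and 3 by 0.63 on the log2 scale and TAP1 by 0.43. Among genes whose mean reached 10 FPKM, those with a GC content near 57% were higher by a median of 0.21. HLA-B, HLA-E and NLRC5 lay near the median of such genes of like GC content, though the mean of NLRC5 was only 5.64 FPKM. HLA-C, at 0.20, lay below its median of 0.32, at the lower edge of the middle 50%. TAPBP, at 0.13, and TAP2, at -0.21, lay below the median but within the middle 50% of genes of like GC content. B2M, at 0.38, lay far above its neighbours in GC content, whose median was -0.53, and above the middle 50% of them, with replicate 2 at 235 FPKM.

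**Figure D2:**
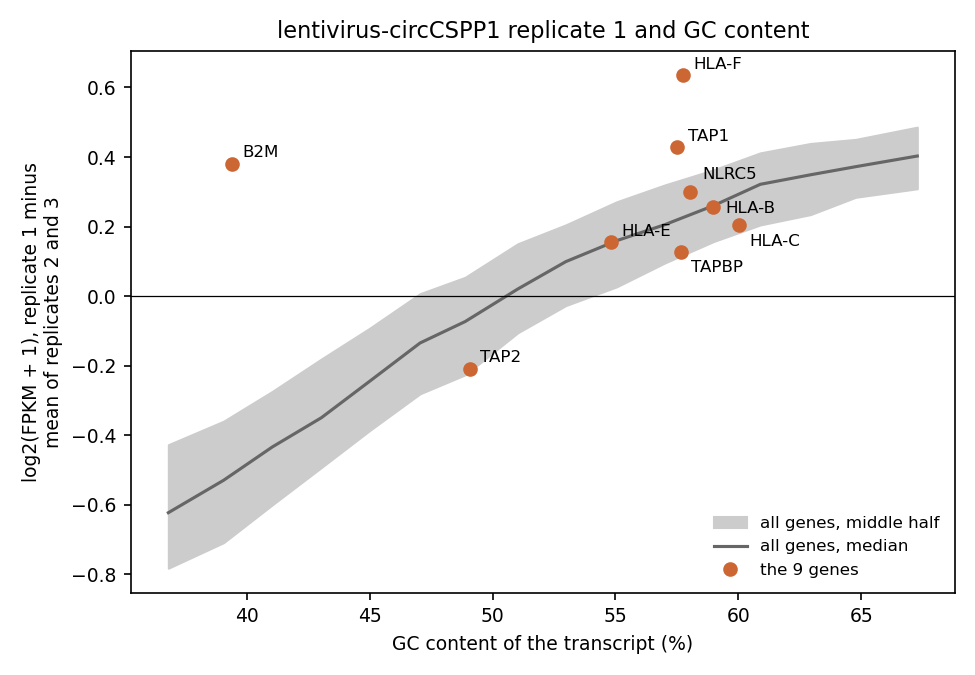
Departure of lentivirus-circCSPP1 replicate 1 from the mean of replicates 2 and 3 on log2(FPKM + 1), against the GC content of the longest coding transcript in percent. The line and band, labelled all genes, are the median and middle 50% of genes whose mean reached 10 FPKM, in bins of GC content. HLA-E, HLA-B and NLRC5 lie near the line, HLA-F (0.63), TAP1 (0.43) and B2M (0.38) above the band.

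A loess correction of each library for GC content and length, added after the data had been seen, narrowed the standard errors of the 9 differences except that of B2M. HLA-B moved from -0.04 to -0.08, HLA-E from 0.06 to 0.03 and B2M from -0.14 to -0.07, all 3 within their intervals. After it 2 of the 9 genes were lower at an adjusted p under 0.05, against 16.4% of all tested genes lower and 28.6% in either direction. Both groups were apart for 3 of the 9, TAPBP, HLA-F and NLRC5, all lower, against 26.2% of all tested genes. TAPBP had a log2 difference of -0.30 (adjusted p = 0.0061) and HLA-F of -0.49 (adjusted p = 0.029), and the 8 genes below 0 before the correction were below 0 after it. NLRC5, at -0.22, had an adjusted p of 0.052 and TAP1, at -0.14, of 0.24 (limma). The standard errors of this fit do not include the error of the correction itself, and over the 17 alternatives the adjusted p of the 4 genes ran as given above.

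**Figure D3:**
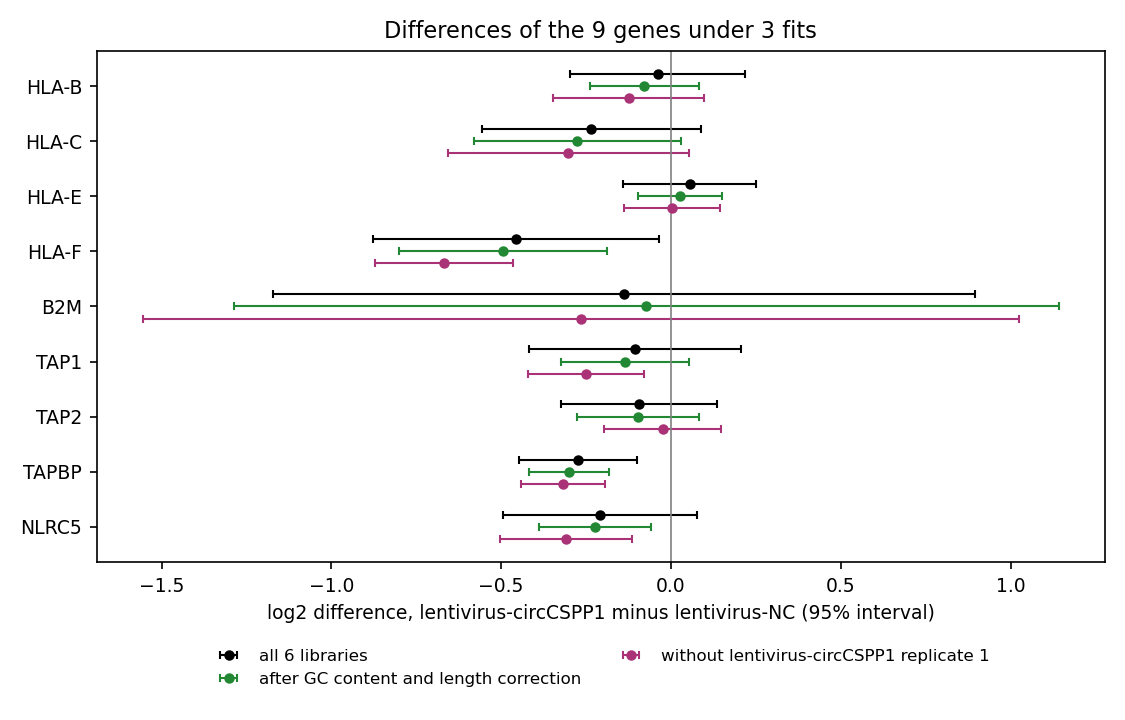
Log2 difference of each of the 9 genes, lentivirus-circCSPP1 minus lentivirus-NC, with its 95% interval from limma, for all 6 libraries (black), after the correction for GC content and length (green) and without lentivirus-circCSPP1 replicate 1 (purple). TAPBP and HLA-F lie below 0 in all 3 fits, HLA-E and HLA-B have intervals that include 0, and B2M has the widest intervals.

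Correlations between the members within groups differed before and after the correction. Over the deviations of the 6 libraries from their group means, 12 of the 36 pairs of members had a Pearson correlation above 0.8, which is a description of 6 points that share 2 group means and the GC departure of replicate 1. After the correction for GC content and length 1 of the 36 pairs was above 0.8. The highest was that of HLA-F and TAP1, at 0.996, and it was 0.989 after the correction for GC content and length. For TAP1 and TAPBP it was 0.859 before and -0.64 after the correction, and for HLA-F and TAPBP 0.828 and -0.69. HLA-C and B2M ran against each other, with -0.71 before and -0.87 after it. TAP1 and TAP2, the partners in one transporter, had -0.54 before and -0.25 after it, and 7 of the 8 correlations of TAP2 with other members were below 0 before it. TAPBP and NLRC5 went from 0.69 to -0.91.

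The other genes of the pathway were read from a list of 77 genes written from general knowledge, of which 69 were tested. Of these 11 passed an adjusted p of 0.05, 5 higher and 6 lower, or 15.9% against 11.4% of all tested genes, and the median log2 difference was -0.08. Without lentivirus-circCSPP1 replicate 1 the number was 27 of 69, against 3514 of 12334 tested genes (28.5%). Without replicate 2 it was 8 of 69, against 1164 of 12339, and without replicate 3 it was 3, against 460 of 12331. Without lentivirus-NC replicates 1, 2 and 3 it was 3, 2 and 2 of 69. The numbers over all tested genes were then 293 of 12288, 309 of 12281 and 404 of 12310. SOCS3 and STAT2 passed in each of the 17 alternatives, RELA in 15, and CALR and MARCHF4 in 13 each. RELA lost the call when lentivirus-NC replicate 2 or 3 was left out, and CALR and MARCHF4 when lentivirus-circCSPP1 replicate 3 or any 1 lentivirus-NC library was. The other 6 genes lost the call more often, as given with each.

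Of 14 genes of peptide supply, 1 passed the threshold, or 7.14% against 11.4% of all tested genes. LAP3, a leucine aminopeptidase that trims peptides in the cytosol, fell from 58.5 ± 1.69 to 43.6 ± 3.64 FPKM (SD, n = 3; log2 difference -0.42, adjusted p = 0.028). It passed in 10 of the 17 alternatives, with an adjusted p of up to 0.13, and lost the call when lentivirus-circCSPP1 replicate 2 or 3 or any 1 lentivirus-NC library was left out. The immunoproteasome subunits PSMB8 and PSMB9 measured 45.5 ± 1.73 and 34.8 ± 1.95 FPKM in lentivirus-NC against 38.8 ± 3.07 and 26.7 ± 2.44 FPKM, with log2 differences of -0.23 (adjusted p = 0.16) and -0.37 (adjusted p = 0.058). Both had groups that did not overlap, as did the activator subunits PSME1 (-0.14, adjusted p = 0.32) and PSME2 (-0.30, adjusted p = 0.055), and 20.5% of all tested genes were apart in this direction. PSMB10, the remaining immunoproteasome subunit, had 0.16 (adjusted p = 0.54). The trimming peptidases of the endoplasmic reticulum, ERAP1 and ERAP2, had 0.13 (adjusted p = 0.40) and -0.08 (adjusted p = 0.76).

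Of 8 genes of folding and editing in the endoplasmic reticulum, CALR passed, or 12.5% against 11.4% of all tested genes. It encodes calreticulin, the chaperone of the peptide loading complex, and fell from 764 ± 13.0 to 582 ± 22.8 FPKM (log2 difference -0.39, adjusted p = 0.011). Its partner PDIA3 had a log2 difference of -0.27 (adjusted p = 0.22), with lentivirus-circCSPP1 replicate 1 at 81.2 FPKM and replicates 2 and 3 at 115 and 108 FPKM. CANX, which encodes the membrane chaperone calnexin, had -0.007 (adjusted p = 0.98), and TAPBPL, a tapasin-like peptide editor, -0.004 (adjusted p = 0.99).

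Of 11 class I-like chains tested among 15 listed, 3 passed, or 27.3% against 11.4% of all tested genes. MR1, which presents vitamin B metabolites to MAIT cells, fell from 3.75 ± 0.0173 to 2.38 ± 0.179 FPKM (log2 difference -0.49, adjusted p = 0.024). PROCR, the endothelial protein C receptor, fell from 113 ± 4.05 to 82.9 ± 8.30 FPKM (-0.44, adjusted p = 0.025). RAET1E, a stress-induced ligand of the receptor NKG2D, rose from 1.45 ± 0.112 to 2.62 ± 0.395 FPKM (0.56, adjusted p = 0.028). MR1 passed in 11 of 16 alternatives, PROCR in 10 of 17 and RAET1E in 9 of 16, with adjusted p of up to 0.11, 0.12 and 0.12. All 3 lost the call when lentivirus-circCSPP1 replicate 3 or any 1 lentivirus-NC library was left out, and PROCR and RAET1E also without lentivirus-circCSPP1 replicate 2. Of the other NKG2D ligands tested, ULBP1 had 0.55 (adjusted p = 0.068) and MICA 0.06 (adjusted p = 0.72). Below 0 were RAET1G at -0.55 (adjusted p = 0.070), ULBP3 at -0.44 (adjusted p = 0.078), ULBP2 at -0.20 (adjusted p = 0.49) and MICB at -0.20 (adjusted p = 0.20).

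Of 15 promoter factors tested, 3 passed, 1 lower and 2 higher, or 20% against 11.4% of all tested genes. STAT2, a subunit of the interferon factor that binds the ISRE, fell from 26.9 ± 1.88 to 15.2 ± 0.272 FPKM (log2 difference -0.79, adjusted p = 0.0047). RELA, the NF-kB subunit p65, rose from 76.5 ± 5.54 to 113 ± 5.92 FPKM (0.56, adjusted p = 0.010), and IRF1, which also binds the ISRE, rose from 22.6 ± 2.74 to 32.6 ± 3.24 FPKM (0.51, adjusted p = 0.039). The call of IRF1 held in 9 of the 17 alternatives, with an adjusted p of up to 0.15, and was lost on leaving out lentivirus-circCSPP1 replicate 2 or 3 or any 1 lentivirus-NC library. IRF2, which competes with IRF1 at the same element, had -0.12 (adjusted p = 0.56). The subunits of the RFX complex, with which NLRC5 acts, had differences near 0 or within their spread, with RFX5 at -0.01 (adjusted p = 0.94), RFXAP at -0.04 (adjusted p = 0.89) and RFXANK at -0.21 (adjusted p = 0.29).

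Of 9 interferon signalling genes tested, 1 passed, or 11.1% against 11.4% of all tested genes. SOCS3, an inhibitor of cytokine receptors that signal through JAK kinases, fell from 35.1 ± 1.42 to 18.5 ± 1.57 FPKM (log2 difference -0.89, adjusted p = 0.0037). The ligand gene IFNG was listed at 0 in all 6 libraries and IFNB1 did not exceed 0.1 FPKM. Of 12 turnover and trafficking genes, 2 passed, or 16.7% against 11.4% of all tested genes. MARCHF4, a membrane ubiquitin ligase that can remove class I from the surface, rose from 8.04 ± 0.144 to 12.2 ± 0.565 FPKM (0.55, adjusted p = 0.015). ARF6, a small GTPase of the pathway along which class I is internalised, rose from 83.0 ± 1.99 to 103 ± 6.26 FPKM (0.31, adjusted p = 0.049), a call at the threshold that was lost in 11 of the 17 alternatives, with an adjusted p of up to 0.19. Leaving out any single library other than lentivirus-circCSPP1 replicate 1 ended it. Adjusted p-values in these paragraphs are from limma with Benjamini-Hochberg adjustment over all genes tested.

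**Figure D4:**
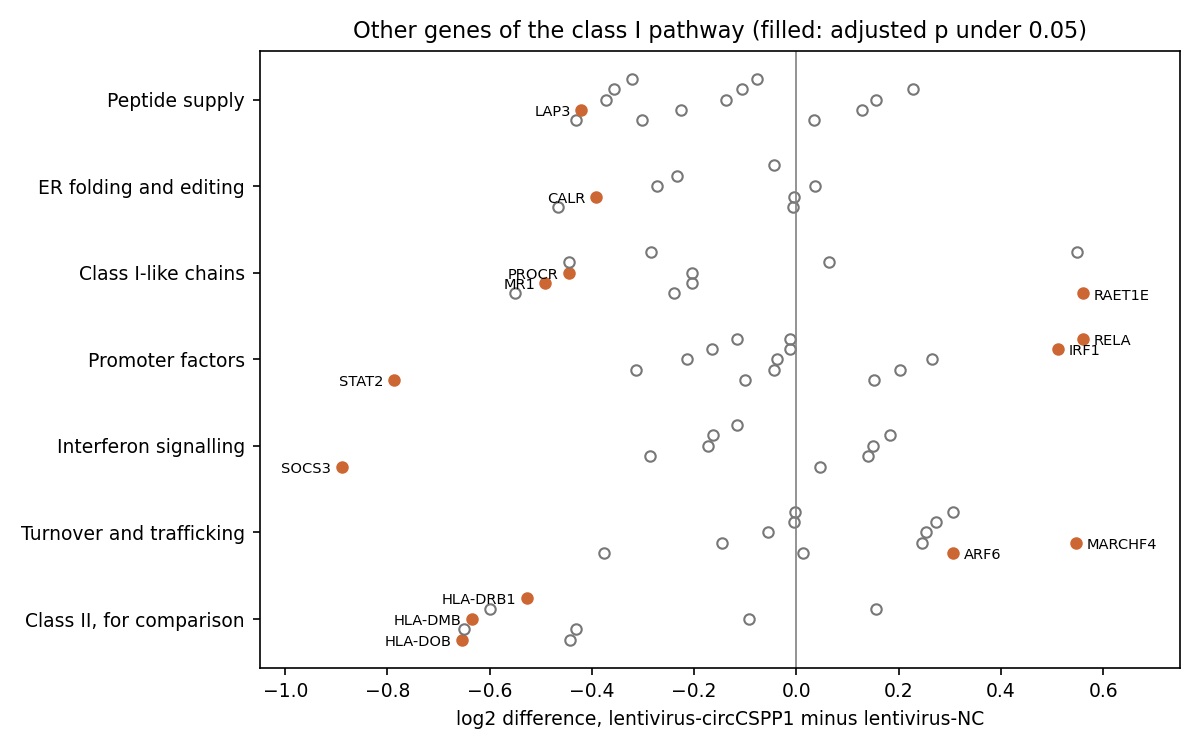
Log2 difference, lentivirus-circCSPP1 minus lentivirus-NC, of the tested genes of the 6 class I pathway lists and of the class II list, 1 point per gene, with genes at an adjusted p under 0.05 filled and named. STAT2 (-0.79) and SOCS3 (-0.89) lie furthest below 0, and RELA, RAET1E, MARCHF4 and IRF1 between 0.51 and 0.56 above it.

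Class II genes, which present peptides from outside the cell, are given for comparison. Of 9 tested, 3 fell, against 6.66% of all tested genes, namely HLA-DRB1 (log2 difference -0.53, adjusted p = 0.023), HLA-DMB (-0.63, adjusted p = 0.037) and HLA-DOB (-0.65, adjusted p = 0.045, limma), with group means between 0.907 and 8.82 FPKM. These calls held in 12 of 17 alternatives for HLA-DRB1, 8 of 17 for HLA-DMB and 8 of 16 for HLA-DOB, with adjusted p of up to 0.12, 0.11 and 0.17. Leaving out 1 library ended the call of HLA-DRB1 for each lentivirus-NC library and lentivirus-circCSPP1 replicate 3, of HLA-DMB for each library but lentivirus-circCSPP1 replicate 1, and of HLA-DOB for each but lentivirus-NC replicate 1. HLA-DRB1 has near-identical paralogs, so its value is uncertain. The difference between class I and class II was not tested. CIITA, the class II counterpart of NLRC5, measured 2.24 ± 0.439 and 2.02 ± 0.0839 FPKM (SD, n = 3; adjusted p = 0.68).

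The genes most like the members in pattern were found from the mean of the scaled values of the 9 genes in each library. The 5 closest of 12226 genes compared, all outside the lists, were SHKBP1, GSN, STRADA, SEZ6L2 and CHST7, with Pearson correlations of 0.992 to 0.995 over 6 libraries. Correlations above 0.95 were found for 144 genes, and they rest on 6 points that share the GC departure given above. All 5 were lowest in lentivirus-circCSPP1 replicate 2, as the mean of the members was, which follows from choosing them by that correlation.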

How the data were processed

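RNA of 6 DU145 libraries, 3 lentivirus-NC and 3 lentivirus-circCSPP1, was poly(A) selected by the authors and read from both ends on an Illumina NovaSeq. The authors deposited 1 table of FPKM values, rounded to 2 decimals; the submitters' processing notes name hg38, and the aligner, FPKM program and annotation are not given in the sources used here. FPKM are not counts, and they move when other genes take more of a library. Each column name gave the group and the replicate, so 0 columns stayed unmatched. Depth was estimated from whole multiples (tolerance 0.15 of a step) in genes with 1 transcript under 800 nt in GENCODE 29, which 93.2% to 98.5% of values met.

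Values were taken to log2(FPKM + 1), so differences of low genes are understated. Genes whose mean reached 1 FPKM (12322) entered limma 3.58.1 in R 4.3.3, with a mean-variance trend and the group as the only term. Two-sided p-values received the Benjamini-Hochberg adjustment. The fit was tested on simulated data. GC content and length were those of the longest protein-coding transcript. Tests of single genes used all permutations (scipy 1.17.1); figures were drawn with matplotlib 3.10.9.

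The members and lists were chosen with earlier results of these data known. Named were the 9 members, listed pathway genes with an adjusted p under 0.05 or fixed by name, and the 5 genes most alike in pattern. PSME3, MICA, MICB, ULBP1, ULBP2, ULBP3, RAET1G, the class II genes and the markers fall outside this rule. The alternatives were pseudocounts of 0.1 and 0.01, filters of 0 and 5 FPKM, TPM, median-ratio and quantile scaling, no moderation, robust eBayes, the replicate block, leaving out each library and, added later, the correction for GC content and length. Some listed genes are not reported here.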

Additional observations from a re-analysis of the deposited data

How the results depend on the processing

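Of the 9 genes, 1 passed an adjusted p of 0.05 after quantile normalization (TAPBP) and 2 after the correction for GC content and length, and 0 to 4 when each library was left out in turn, 4 without lentivirus-circCSPP1 replicate 1; the number was 0 under the other alternatives. Groups without overlap, all lower, were seen for 2 of the 9 genes after quantile normalization, against 2228 of 12314 tested genes. The number was 3 after the correction, against 26.2% of all tested genes. It was 1 to 5 when a library was left out, against 2786 of 12281 to 3613 of 12334 tested genes lower. The median log2 difference of the 9 genes ran from -0.27 to -0.08 over the 17 alternatives. Among the 69 pathway genes tested 27 passed after the correction, 6 with the replicate block, and 2 to 27 when a library was left out. Over all tested genes 1385 of 12314 passed after quantile normalization. Of 12322, 3529 passed after the correction, 834 without moderation of the variance and 923 with the replicate block. When a library was left out, 293 of 12288 to 3514 of 12334 passed. Replicate numbers did not pair the libraries, since deviations of same-numbered libraries correlated by 0.073, 0.0065 and 0.057, and the replicate block moved no call of the 9 genes.

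Differences near 0 changed sign. HLA-B was at 0.0042 with median-ratio scaling and between -0.12 and 0.081 when a library was left out, B2M between -0.58 and 0.26, and TAP1 between -0.25 and 0.0051. CANX was at 0.011 after rescaling to TPM, 0.036 with median-ratio scaling, 0.036 after the correction and between -0.12 and 0.15 when a library was left out. RFX5 was at 0.0056 with TPM and 0.030 with median-ratio scaling, and between -0.050 and 0.039 when a library was left out. RFXAP was at 0.074 and TAPBPL at 0.072 after quantile normalization, and TAPBPL at 0.011 with TPM and 0.034 with median-ratio scaling. When a library was left out, RFXAP lay between -0.16 and 0.051, TAPBPL between -0.21 and 0.17, and ERAP2 between -0.17 and 0.067. The cause of these changes was not tested. Precision is limited by 3 libraries a group and, for the heavy chains and TAP2, by fragments shared between genes.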
